A study of Mus musculus with 4 samples.

Results

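The voltage-gated sodium and calcium channel genes were followed across the areas of coronal mouse brain sections measured by spatial transcriptomics. The members were all genes of the deposited table whose symbol named a sodium channel alpha or beta subunit (Scn with a number and a or b) or a calcium channel alpha1, alpha2delta, beta or gamma subunit (Cacna1, Cacna2d, Cacnb and Cacng). They numbered 40 of the 19465 genes in the table: 10 sodium alpha, 4 sodium beta, 10 calcium alpha1, 4 alpha2delta, 4 calcium beta and 8 gamma genes. Of these, 35 had a mean level of at least 1 CPM over whole sections (CPM is a gene's counts divided by all counts and multiplied by 1000000). The 5 others, Scn4a, Scn10a, Scn11a, Cacna1f and Cacna1s, averaged 0.309 to 0.765 CPM. They are known from skeletal muscle (Scn4a, Cacna1s), sensory neurons (Scn10a, Scn11a) and retina (Cacna1f), and their areas are not compared below.

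Voltage-gated sodium channels carry the rising phase of the action potential. The alpha subunit forms the pore and its voltage sensors, and beta subunits are single-pass proteins that set gating and membrane targeting. Voltage-gated calcium channels turn depolarisation into calcium entry: the alpha1 subunit defines the current type (P/Q, N, R, L or T), the beta subunit is cytoplasmic and the alpha2delta subunit extracellular. Several gamma genes encode proteins better known as TARPs, auxiliary subunits of AMPA-type glutamate receptors.

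The sections came from 4 mice, 2 wild type for Celsr3 and 2 heterozygous for it, 1 brain per labelled sample. The brains were trimmed to show the striatum, fixed in formalin and embedded in paraffin, and assayed with Visium CytAssist for FFPE tissue, version 2 of the kit, in which probes for each gene are counted in spots laid over the section. The labels used here give no age, sex, strain or mutant allele design. A spot can hold several cells or parts of cells of different types. The table joins all spots, and nothing in it ties a barcode suffix to a mouse or a genotype. The spots were therefore kept as 4 barcode sets, named 1 to 4 after their suffix, and no genotype comparison was made. With no replicate groups there was no test of any kind. Each set is given by itself, and the 95% intervals printed cover counting error only (exact Poisson for levels, exact conditional binomial for ratios). A probe's capture differs from gene to gene, so a level is set only against the same gene's level elsewhere.

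The sets held 2808 to 3445 spots, 90752475 to 174761560 counts and a median of 26444.5 to 52481 counts per spot. The shallowest was set 4. The sets shared barcode sequences: of 4744 different barcodes, 1613 occurred in all 4. The spots fell into 21 clusters formed without the channel genes, and 19 of the clusters took 1 of 9 areas from their marker genes. The striatal marker area held 499 to 862 spots per set and the cortical marker area 901 to 1174. The white-matter marker area held 141 to 295 spots. The thalamic marker area was large enough only in sets 1 and 4 (152 and 301 spots), and the septal marker area only in sets 2 and 3 (138 and 237 spots). The septal cluster had 5 septal and 4 thalamic markers among its 20 leading genes, so its name is the least certain of the 9. Neuronal marker genes (7 in the list) summed to 5087 to 6661 CPM over the whole sections, and no gene of that list was at 0.

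A gene was counted as higher or lower in an area when its level there was at least 1.5 times above or below its level in the other spots of the same set, in every set with at least 30 spots of the area. In the striatal marker area, 7 of the 35 members were higher (20%), against 6.12% of all 13773 genes at this level, and 5 were lower (14.3%, against 14.0% of all genes). Under TMM and RLE scaling the striatal split was 11 higher with 5 lower and 12 higher with 4 lower. In the cortical marker area 6 members were higher (17.1%, against 5.16%) and 11 were lower (31.4%, against 14.8%). The other spots of the cortical comparison include the striatal ones, so the striatal and cortical calls are not separate findings. Scn4b, Cacna1h, Cacnb2, Cacng1 and Cacng4 were both higher in the striatal and lower in the cortical marker area. Under TMM and RLE scaling the cortical split was 9 higher with 8 lower in both cases. Clusters formed without centring the sets gave 0 higher and 7 lower members in cortex, so that no cortical higher call was kept, 4 and 5 in thalamus and 3 lower in striatum. In that setting a cluster led by Arc and Prdm8 took no area, with 2 cortical markers where 3 were needed. It held 416 spots of set 2 and 379 of set 4, which were then counted among the other spots. Their part in the lost cortical calls was not tested. In the thalamic marker area 7 were higher (20%, against 6.13%) and 10 were lower (28.6%, against 13.7%). In the white-matter marker area 1 was higher (2.86%, against 11.0%) and 23 were lower (65.7%, against 12.7%). The share of lower striatal members was thus near the background, whereas the share of lower white-matter members was far above it. Fewer cells of a type and less RNA per cell cannot be told apart in such spots.

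**Figure D1:**
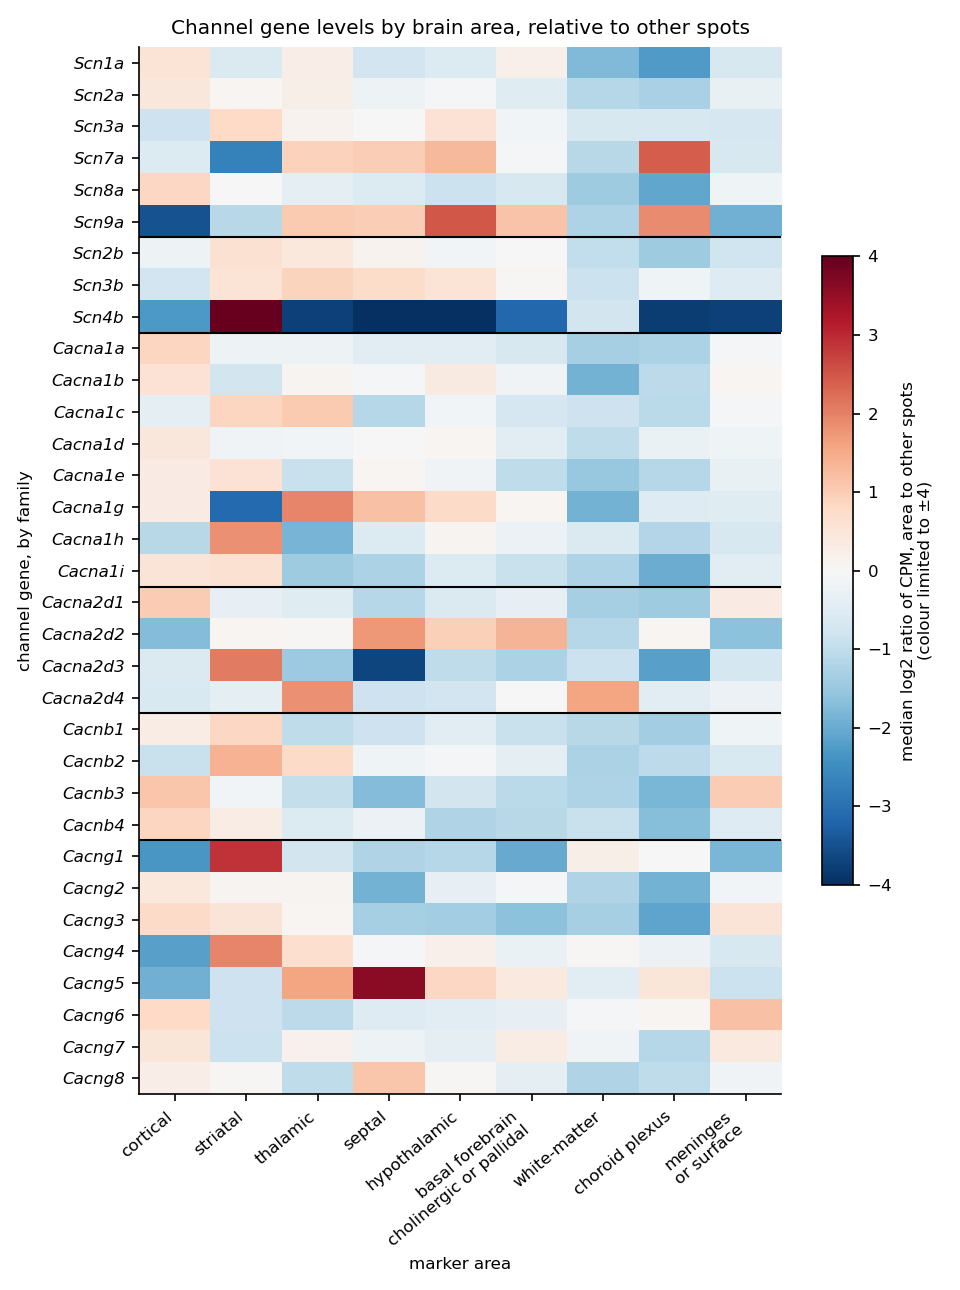
Median log2 ratio of each channel gene's level in an area to its level in the other spots of the same set, for 33 of the 35 genes of at least 1 CPM (rows) and the 9 marker areas (columns). Scn4b stands out in the striatal column at 4.26, and 30 of the 33 genes drawn lie below 0 in the white-matter column.

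Among the sodium channel alpha subunits, Scn1a, Scn2a and Scn8a were lower in the white-matter marker area, and others were higher in the hypothalamic marker area. Scn3a was lower in the cortical marker area and was not among the lower white-matter members. Scn8a, the main channel of the axon initial segment and nodes of Ranvier, stood at 207, 207, 196 and 235 CPM in the cortical marker area of sets 1 to 4 and at 112, 135, 110 and 131 CPM in the other spots. Every cortical value lay above every other value, and the median ratio was 1.79. Scn1a, the alpha subunit of fast-spiking interneurons, stood at 203, 119, 205 and 126 CPM in the cortical marker area against 125, 92.5, 105 and 95.7 CPM elsewhere. Its ratios of 1.62 and 1.96 in sets 1 and 3 passed the rule, while those of 1.29 and 1.31 in sets 2 and 4 did not. Scn2a, the channel of excitatory axons early in life and of dendrites later, was highest in the same cluster of all 4 sets, cluster 9, at 325, 302, 314 and 259.7 CPM; that cortical cluster is led by Ccn3, Nr4a2 and Ntng2.

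Scn9a, known from peripheral pain-sensing neurons and from hypothalamic neurons, stood at 28.2, 31.7, 23.8 and 24.5 CPM in the hypothalamic marker area of sets 1 to 4 and at 4.97, 3.92, 4.26 and 5.89 CPM elsewhere. The groups did not overlap, and the ratios ran from 4.15 (interval 3.58 to 4.81) in set 4 to 8.09 (6.94 to 9.42) in set 2. Scn7a, an atypical member known as a sodium sensor of the circumventricular organs, stood at 8.20, 2.52, 5.37 and 3.80 CPM there against 2.81, 1.34, 1.94 and 1.75 CPM. Both were among the 4 members higher there (11.4% of 35, against 6.10% of all genes), as was Cacna2d2, and 6 were lower (17.1%, against 7.12%). Cortical values of Scn9a were at the opposite end, with a median ratio of 0.0902. In the striatal marker area Scn7a had a median ratio of 0.154, which rests on 10 to 17 counts a set.

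Scn9a was also the 1 member higher in the choroid plexus marker area (2.86% of 35, against 13.0% of all genes), where 17 members were lower (48.6%, against 8.02%). It stood there at 14.3, 31.0, 19.5 and 32.6 CPM, on 120, 28, 111 and 62 counts. Scn7a reached 14.9, 28.8 and 10.9 CPM there in sets 1 to 3, its highest cluster in each, but 0.527 CPM, a single count, in set 4. The choroid plexus cluster also held ventricle-lining markers, 3 of its 20 leading genes. Astrocyte markers (5 in the list) summed there to 1108 to 2710 CPM, against 834 to 1121 CPM over whole sections, and neuronal markers to 985 to 2168 CPM; no gene of these lists was at 0. Their part in the Scn7a and Scn9a levels was not tested.

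Of the sodium beta subunits, Scn4b had by far the highest striatal ratios. This gene, whose cytoplasmic tail can act as the open-channel blocker behind resurgent sodium current, stood at 1553, 1168, 1301 and 1177 CPM in the striatal marker area of sets 1 to 4. In the other spots it stood at 75.9, 59.3, 80.3 and 63.0 CPM. No value of one group came near the other, and the ratios were 20.5, 19.7, 16.2 and 18.7, with an interval of 18.1 to 19.3 in set 4, the shallowest. Within the striatal marker area Scn4b was not even. In cluster 1, led by Syndig1l, Rgs9 and Adora2a, it stood at 1776, 999, 1447 and 1330 CPM. In cluster 10, led by Pdyn and Crym, it stood at 795, 578, 664 and 493 CPM, below cluster 1 in every set. Cluster 8, led by Lrrc10b, lay mostly in set 2 and held 1348 CPM there. Its lowest levels, 4.93 to 8.87 CPM, were all in hypothalamic clusters.

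Scn2b, which is disulphide-linked to the alpha subunit, stood at 343, 290.4, 277 and 255 CPM in the striatal marker area against 229, 171, 176 and 174 CPM. Its ratios of 1.501, 1.70, 1.58 and 1.46 straddled the rule. Scn3b had lower levels in the cortical marker area (median ratio 0.587) and higher ones in the thalamic marker area, at 149 and 177 CPM in sets 1 and 4 against 76.6 and 98.7 CPM.

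**Figure D2:**
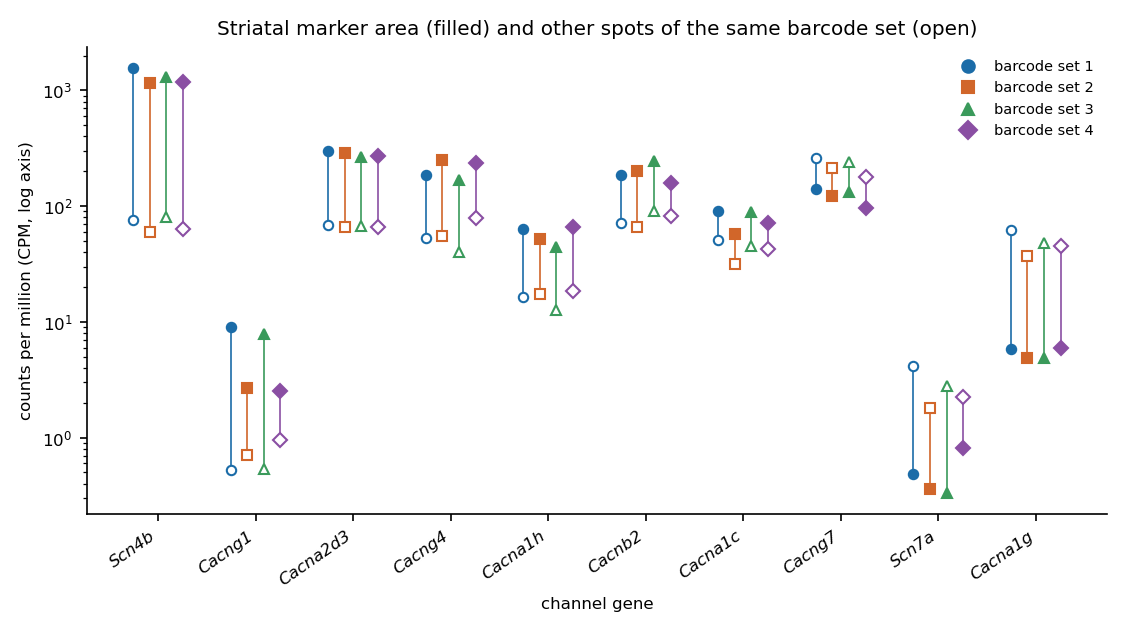
Levels in CPM, on a log axis, of 10 channel genes that were at least 1.5-fold higher or lower in the striatal marker area, with 1 point per barcode set for the striatal spots and 1 for the other spots. The striatal points of Scn4b lie between 1168 and 1553 CPM and its other points between 59.3 and 80.3 CPM, while Cacna1g shows the opposite order.

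Scn2b and Scn4b lie near each other on chromosome 9, and the start regions of these neighbours are shown because their striatal ratios differed. Scn4b was 16.2 to 20.5 times higher in the striatal marker area and Scn2b at most 1.70 times. The sequences are the 250 bases before each gene's annotated start, from RefSeq on GRCm38.p6, plus strand, 5′ to 3′, with each CpG dinucleotide in capitals. The Scn2b window is chr9:45117626-45117875 and the Scn4b window chr9:45138374-45138623.
Scn2b: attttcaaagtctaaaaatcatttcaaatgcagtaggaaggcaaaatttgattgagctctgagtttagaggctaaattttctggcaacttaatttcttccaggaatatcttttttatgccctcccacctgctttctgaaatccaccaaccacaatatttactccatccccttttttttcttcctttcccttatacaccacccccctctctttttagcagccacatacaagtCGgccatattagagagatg
Scn4b: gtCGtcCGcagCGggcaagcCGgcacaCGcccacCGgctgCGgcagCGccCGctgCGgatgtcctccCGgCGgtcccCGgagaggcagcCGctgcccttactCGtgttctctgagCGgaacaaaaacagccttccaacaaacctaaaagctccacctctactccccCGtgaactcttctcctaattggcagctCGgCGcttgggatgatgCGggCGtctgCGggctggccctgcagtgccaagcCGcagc
The Scn2b window held 1 CpG at 38.4% G and C, and the Scn4b window held 23 CpG at 66.0%. The median over all windows of this length in the RefSeq table was 6 CpG and 52.4%, and 86.7% of windows held fewer CpG than that of Scn4b. These counts describe the letters of the windows, and no methylation or binding was measured. Across clusters the levels of Scn2b and Scn4b had a median Pearson r of 0.36 over the 4 sets, with 15 or 16 clusters per set.

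Of the calcium channel alpha1 genes, the 3 T-type (low-voltage-activated) genes differed in where they were high. Cacna1h stood at 62.8, 52.3, 44.5 and 65.8 CPM in the striatal marker area, against 16.4, 17.4, 12.8 and 18.5 CPM in the other spots. All striatal values lay above all others, with a median ratio of 3.52. Cacna1g stood at 5.86, 4.85, 4.90 and 5.93 CPM in the striatal marker area, against 61.6, 37.3, 47.6 and 45.5 CPM elsewhere, a median ratio of 0.116. In the thalamic marker area the pair changed places. Cacna1g, the T-type channel of thalamic burst firing, stood at 176 and 106 CPM in sets 1 and 4 against 40.1 and 31.3 CPM, with ratios of 4.39 (4.18 to 4.60) and 3.37 (3.14 to 3.62). Cacna1h stood there at 7.43 and 7.44 CPM, against 27.2 and 27.3 CPM. The rise of Cacna1g was not confined to the thalamic marker area. In the septal marker area of sets 2 and 3 it stood at 62.5 and 79.0 CPM, against 27.3 and 35.5 CPM.

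Cacna1i, the third T-type gene and the one known from the thalamic reticular nucleus, stood at 18.7 and 49.2 CPM in the thalamic marker area of sets 1 and 4, against 55.6 and 121 CPM elsewhere. In the striatal marker area it stood at 78.9, 166, 66.4 and 158 CPM, against 46.3, 105, 47.1 and 105 CPM, and a ratio of 1.41 in set 3 left it short of the rule there. In cluster 20, which took no area and was led by Pvalb, Six3, Lancl3 and Esrrg, Cacna1i stood at 68.5 CPM in set 1 and 178 CPM in set 4. Cacna1g stood there at 37.0 and 17.9 CPM, far below its thalamic values. In the cortical marker area Cacna1i stood at 69.2, 132, 57.6 and 146 CPM, and ratios of 1.60, 1.195, 1.26 and 1.60 left it short of the rule in sets 2 and 3.

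**Figure D3:**
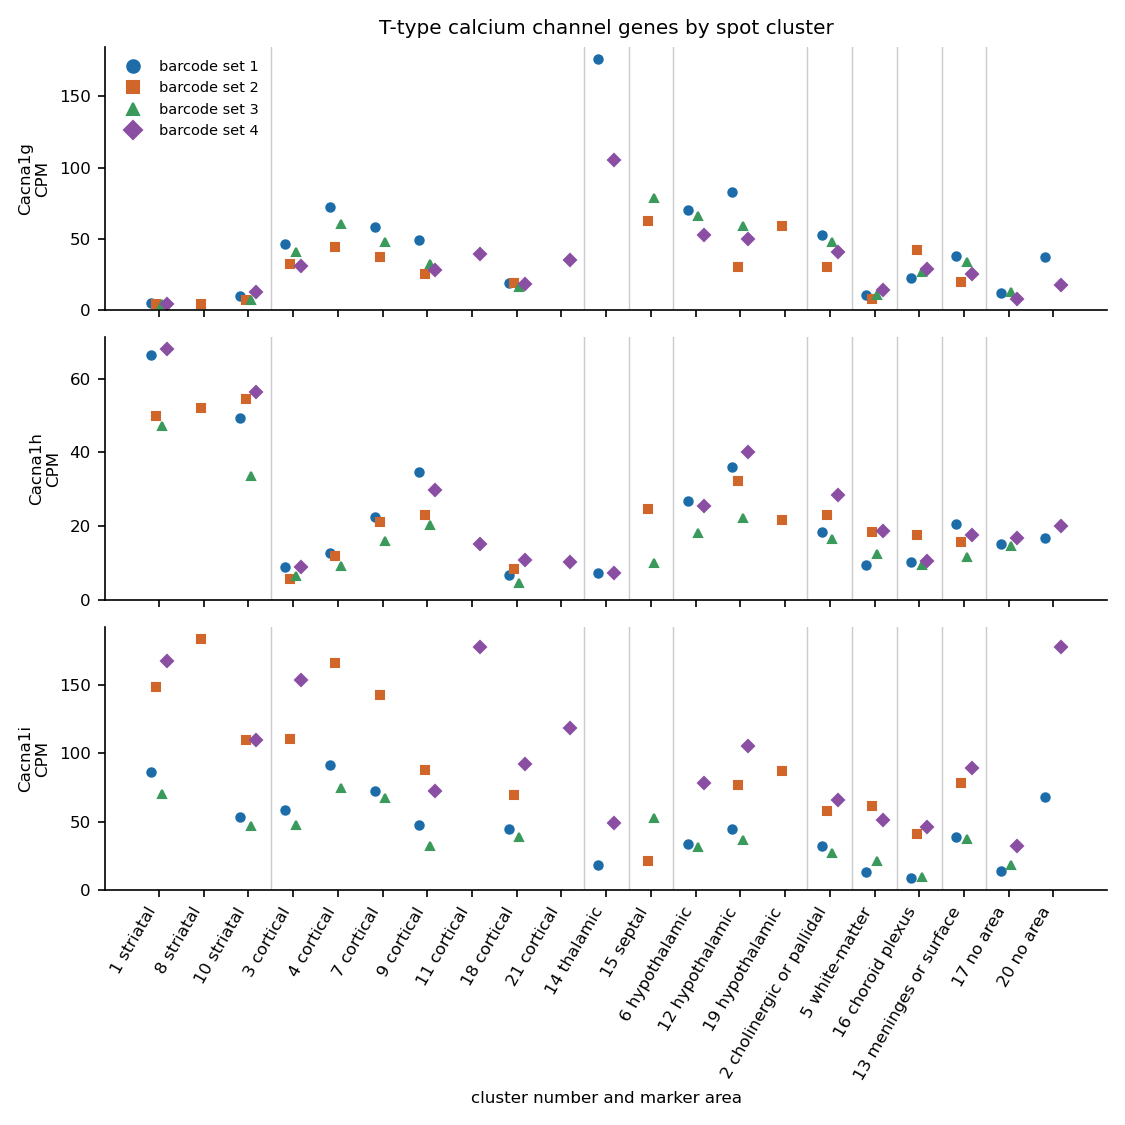
Levels of the T-type genes Cacna1g, Cacna1h and Cacna1i in each cluster, in CPM on linear axes from 0, with 1 point per barcode set and the clusters grouped by area. Cacna1g is highest in the thalamic cluster in sets 1 and 4 (176 and 106 CPM) and in the septal cluster in sets 2 and 3 (62.5 and 79.0 CPM). It is lowest in the striatal clusters, where Cacna1h is high.

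Among the high-voltage-activated genes, Cacna1a, the P/Q-type channel of fast transmitter release, stood at 239, 316, 209 and 269 CPM in the cortical marker area, against 129, 179, 135 and 147 CPM, a median ratio of 1.80. Cacna1c, an L-type gene, was higher in the striatal marker area at 90.8, 57.8, 88.7 and 72.1 CPM against 50.7, 31.6, 45.0 and 42.2 CPM. It was also higher in the thalamic marker area, at 109 and 87.9 CPM in sets 1 and 4. Cacna1e, the R-type gene, was highest in cortical cluster 9 in sets 1 to 3 (144, 136 and 157 CPM) and in striatal cluster 10 in set 4 (158 CPM, with cluster 9 at 157 CPM). Cacna1b (N-type) and Cacna1d (L-type) passed the rule only in the white-matter marker area among the 4 main areas, where both were lower.

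The alpha2delta genes were high in different areas. Cacna2d3 stood at 297, 287, 268 and 269 CPM in the striatal marker area of sets 1 to 4, against 68.9, 66.4, 67.9 and 65.9 CPM in the other spots. Its levels were close together within each group, and the ratios were 4.31, 4.32, 3.94 and 4.07. In the septal marker area it stood at 10.3 and 8.87 CPM in sets 2 and 3, the lowest of its clusters in both. Cacna2d1, a binding site of gabapentin, stood at 330.3, 340 and 305 CPM in the cortical marker area of sets 1 to 3 and 303 CPM in set 4, against 159.8, 169, 161 and 145 CPM. Cacna2d2, the other gabapentin-binding member, was at the low end there, with 34.0, 25.6, 29.9 and 36.6 CPM against 92.1, 115, 103 and 118 CPM. Its higher levels lay in 3 other areas: 116, 140.0, 116 and 160.3 CPM in the hypothalamic marker area, 139, 209, 183 and 173 CPM in the basal forebrain cholinergic or pallidal marker area, and 282 and 156 CPM in the septal marker area of sets 2 and 3. In the basal forebrain area 3 members were higher (8.57%, against 4.94% of all genes), Scn9a and Cacna2d2 among them, and 8 were lower (22.9%, against 7.68%).

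The calcium channel beta genes divided in the same way, with Cacnb2 on the striatal side and Cacnb3 and Cacnb4 on the cortical side. Cacnb2 stood at 186, 203, 246 and 157 CPM in the striatal marker area, against 71.2, 65.4, 91.4 and 81.5 CPM. Its lowest striatal value was above its highest other value, and its median ratio was 2.65. Its median cortical ratio was 0.540, against other spots that include the striatal ones. Cacnb3 stood at 278, 219, 293 and 309 CPM in the cortical marker area, against 122, 108, 148 and 136 CPM. It was also the 1 member higher in the meninges or surface marker area (2.86%, against 9.06% of all genes), at 354, 311, 371 and 400.4 CPM, while 6 members were lower there (17.1%, against 4.35%). Those surface spots also held glutamatergic neuron markers (4 in the list) at a summed 5024 to 6346 CPM, against 2220 to 2916 CPM over whole sections, with none at 0; their part in the Cacnb3 level was not tested. Cacnb4 had a median cortical ratio of 1.82, at 175, 100.4, 119 and 94.2 CPM.

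Among the gamma genes, Cacng4 and Cacng5, both TARPs, and Cacng1, the gamma subunit of the skeletal muscle channel, lie near one another on chromosome 11. Cacng1 and Cacng4 were highest in striatal clusters in all 4 sets, and Cacng5 in the septal or thalamic cluster. Cacng4 stood at 185, 251, 168 and 234 CPM in the striatal marker area, against 53.0, 55.4, 39.8 and 79.7 CPM. Cacng1 stood at 9.06, 2.68, 7.87 and 2.52 CPM there, against 0.522, 0.707, 0.534 and 0.956 CPM. The Cacng1 groups did not overlap, but the ratios ran from 2.63 (1.67 to 4.05) in set 4 to 17.3 (13.4 to 22.7) in set 1, on 31 to 317 striatal counts. Cacng5 stood at 155 and 275 CPM in the septal marker area of sets 2 and 3, against 15.6 and 18.003 CPM, ratios of 9.90 (9.11 to 10.8) and 15.3 (14.5 to 16.1). At a cluster resolution of 1.2, the septal spots of set 3 divided: 118 stayed with 137 of set 2, and 119, with 1 of set 2, formed a cluster with no area led by Ctxn3, Lbhd2 and Ebf3. In the thalamic marker area of the other two sets it stood at 54.5 and 59.7 CPM, against 18.03 and 20.1 CPM.

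With Cacng5, the septal marker area held 8 higher members (22.9%, against 5.39% of all genes) and 10 lower ones (28.6%, against 8.34%). The lower call of Cacng1 there rested on 3 counts in set 2, where its ratio of 0.437 (0.0890 to 1.31) lay within counting error. Cacng8, the TARP best known from hippocampus, stood there at 283 and 284 CPM in sets 2 and 3, against 127 and 136 CPM. Cacng3, a TARP, came close to the rule in cortex without meeting it, since its ratio of 1.35 in set 2 fell short of the 1.64 to 2.13 in the others. Cacng7, a type II TARP, had a median striatal ratio of 0.548, at 141, 123, 134 and 96.5 CPM.

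In the white-matter marker area most channel genes were low together, and 1 was high. The median log2 ratio over the 35 members was -1.15, against -0.07 over all genes at that level, and 32 members lay below 0. Scn1a stood at 37.3, 27.9, 50.6 and 48.1 CPM there, against 160.3, 107, 153 and 109.7 CPM, and Cacna1b at 11.6, 19.6, 20.1 and 21.4 CPM against 48.3, 71.9, 53.2 and 81.0 CPM. Among the lowest median ratios were those of Cacna1b (0.268), Cacna1g (0.272), Scn1a (0.293), Cacna1e (0.347) and Scn8a (0.370). Cacna2d2 was lower by 1.16 on the log2 scale, and this turned to 0.24 when clusters were formed without centring the sets. Neuronal markers summed to 1285 to 2387 CPM in the white-matter spots, against 5087 to 6661 CPM over whole sections. Oligodendrocyte markers (7 in the list) summed to 58875 to 96980 CPM, against 8766 to 17188 CPM. No gene of either list was at 0, and the part of these shifts in the channel levels was not tested.

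The exception was Cacna2d4, an alpha2delta gene known from the retina. It stood at 8.09, 4.31, 7.41 and 8.80 CPM in the white-matter spots, against 2.26, 1.72, 1.43 and 3.54 CPM in the other spots. Every white-matter value was above every other value, with ratios of 3.58 (2.78 to 4.56), 2.51 (1.31 to 4.41), 5.18 (3.44 to 7.56) and 2.49 (1.65 to 3.62) on 81, 13, 31 and 30 counts. In the thalamic marker area it stood at 6.82 and 11.4 CPM in sets 1 and 4. Cacna2d4 lies near Cacna1c on chromosome 6, with at most 3 protein-coding genes between them. Cacna1c was lower in white matter, with a median ratio of 0.559.

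**Figure D4:**
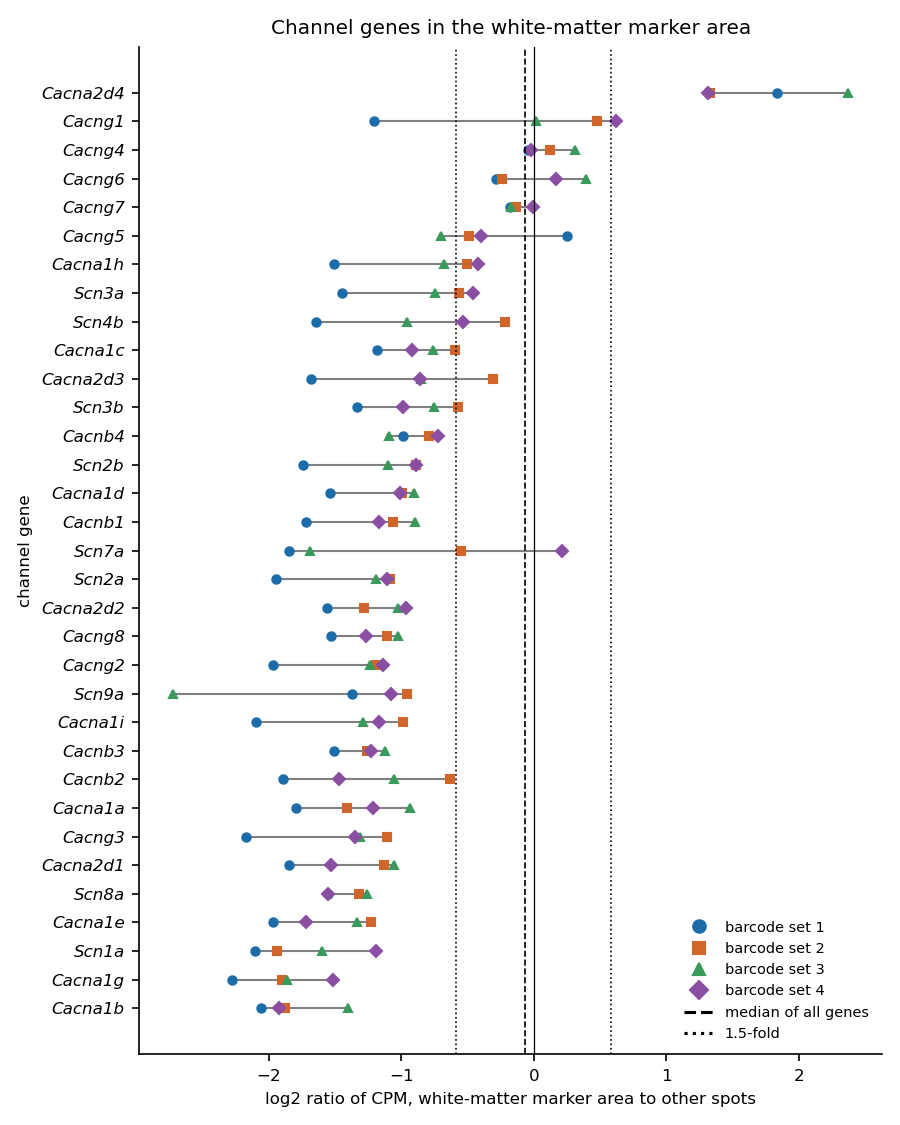
Log2 ratio of the level in the white-matter marker area to the level in the other spots for 33 channel genes, with 1 point per barcode set, a bar from the lowest to the highest set and a dashed line at the median of all genes. The Cacna2d4 points lie between 1.31 and 2.37, and 21 of the genes drawn lie below the 1.5-fold line in every set.

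Between whole sections, 15 of the 35 members differed at least 1.5-fold between the highest and lowest set (42.9%), against 46.2% of all genes. At 2-fold the members were 4 (11.4%), against 16.9% of all genes. The channel genes were thus near the background. The smallest spread was that of Scn8a, 1.17-fold, at 147, 168, 150.2 and 171 CPM. The sections differ in the areas they cut, as with the thalamic and septal marker areas, so a whole-section level also moves with the share of each area.

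Cacng6, another gamma gene, was the exception, at 15.04, 18.7, 8.26 and 1.58 CPM in sets 1 to 4. Set 4 held 143 counts of it and the other sets 1364 to 2628. The highest set was 11.9 times the lowest, and 0.436% of all genes were as far apart; without set 4 the ratio was 2.27. Set 4 was also the lowest, and set 3 the next, inside areas. In the cortical marker area Cacng6 stood at 21.3, 25.05, 9.99 and 2.07 CPM, and in the striatal marker area at 10.8, 10.4, 6.07 and 0.812 CPM. Within each set its pattern was alike, for its highest cluster was 4 or 9, both cortical, in all 4 sets. In cluster 9 it stood at 22.8, 44.2, 19.995 and 4.38 CPM. Set 4 was also the shallowest set, and the part of its depth in the Cacng6 level was not tested.

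Cacna1i was next among well-detected members, at 52.8, 120.4, 51.3 and 112 CPM, so that sets 2 and 4 were above sets 1 and 3. The same 2 against 2 order held in the striatal marker area, the cortical marker area and the hypothalamic marker area (37.1, 84.2, 32.9 and 86.3 CPM). This split of the sets was not particular to Cacna1i. Over whole sections, sets 2 and 4 also lay above sets 1 and 3 for Cacna1b, Cacnb1 and Cacng4, among others. They lay below sets 1 and 3 for Scn1a, Scn3a and Cacna1c, among others, while Cacna2d1 and Cacnb2 showed no such split. The share of all genes with this split was not counted. The same split held for depth. The median counts per spot were 52481 and 44966 in sets 1 and 3, and 38181.5 and 26444.5 in sets 2 and 4. The part of depth in these levels was not tested. Under TMM scaling the whole-section levels were 57.0, 115, 54.6 and 102 CPM. Scn7a (2.39-fold, at 3.45, 1.44, 2.28 and 2.04 CPM) and Cacna2d4 (2.36-fold, at 2.60, 1.79, 1.58 and 3.74 CPM) were the other members past 2-fold, both at low levels; without set 1 the Scn7a ratio was 1.58.

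**Figure D5:**
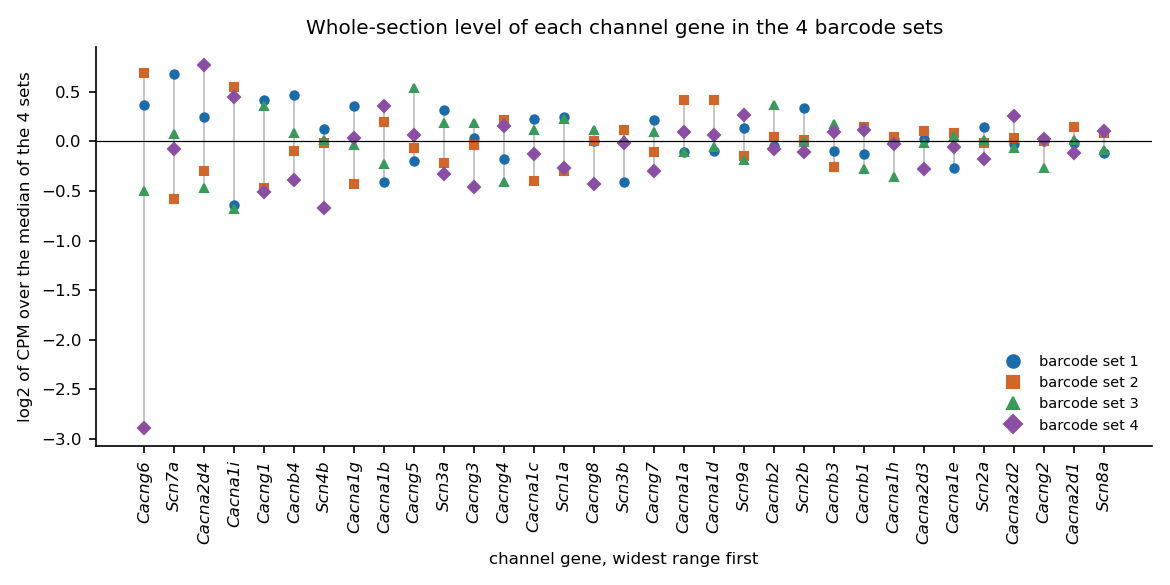
Log2 of the whole-section level over the median of the 4 barcode sets for 33 channel genes, 1 point per set, the gene with the widest range first. For most genes the 4 points lie close together, while Cacng6 drops to 1.58 CPM in set 4 from 8.26 to 18.7 CPM in the others.

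Cacng6 shares a stretch of chromosome 7 with Cacng7 and Cacng8, and its start region is shown beside that of Cacng7, which differed 1.44-fold between the sets. The 250 bases before each start (RefSeq, GRCm38.p6, plus strand, CpG in capitals) are chr7:3332575-3332824 for Cacng7 and chr7:3424412-3424661 for Cacng6.
Cacng7: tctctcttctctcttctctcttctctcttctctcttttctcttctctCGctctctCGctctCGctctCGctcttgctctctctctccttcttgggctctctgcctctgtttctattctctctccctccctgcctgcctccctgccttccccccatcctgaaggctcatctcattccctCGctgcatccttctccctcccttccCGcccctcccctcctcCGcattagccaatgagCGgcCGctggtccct
Cacng6: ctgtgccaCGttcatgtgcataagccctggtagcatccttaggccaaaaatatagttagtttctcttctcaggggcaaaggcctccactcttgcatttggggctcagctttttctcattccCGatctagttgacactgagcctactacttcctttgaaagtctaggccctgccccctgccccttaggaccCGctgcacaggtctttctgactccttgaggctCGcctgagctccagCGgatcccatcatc
The Cacng7 window held 9 CpG and the Cacng6 window 5, on either side of the median of 6. Over clusters the levels of the pair had a median Pearson r of 0.07. In all, 18 members lay in 6 such runs of neighbours, with at most 3 protein-coding genes between them. For the other pairs of gamma neighbours named above, r was 0.73 for Cacng1 and Cacng4, 0.47 for Cacng4 and Cacng5 and 0.11 for Cacng7 and Cacng8.

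All pairs of the 35 members of at least 1 CPM were compared over the clusters of each set, whether or not they share a channel complex. The comparison only describes points that share a library and depth. Of 595 pairs, 20 had a median r of at least 0.8 over the 4 sets, and 1 of those, Cacnb1 with Cacnb3 at 0.85, was within a family. Pairs near the top joined different subunit classes: Cacna2d1 with Cacnb3 and Cacna1e with Cacnb1 were both at 0.91. The median r was 0.15 over the 95 pairs within a family and 0.20 over the other 500. The lowest value was that of Scn4b and Cacna1g, -0.77. The genes of the whole table whose level over clusters was most like that of Scn4b were Pmepa1 (0.89), the muscarinic receptor gene Chrm4 (0.88), Inf2 (0.88), Mbnl2 (0.86) and Usp3 (0.86).

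A list of 40 other genes whose products anchor, modulate or act downstream of these channels gave the following counts, all 40 being at least 1 CPM. In the striatal marker area 5 were higher and 10 lower (12.5% and 25%, against 6.12% and 14.0% of all genes). The higher ones were the intracellular calcium release channel genes Ryr1, Ryr3 and Itpr1 (median log2 ratios 2.96, 2.44 and 1.55), Rem2, a small GTPase that restrains calcium channels (3.36), and Nedd4l, a ubiquitin ligase (1.25). In cortex 11 were higher and 7 lower (27.5% and 17.5%, against 5.16% and 14.8%), led upward by Tmem178 (2.99), the presynaptic gene Stx1a (2.71) and the calcium sensor gene Cabp1 (2.17), with Rem2 (-2.70) and Ryr3 (-1.97) among the lower ones. In the thalamic marker area 3 were higher and 11 lower (7.5% and 27.5%, against 6.13% and 13.7%). The cortical lower and thalamic higher shares were near the background. In the white-matter marker area 1 was higher, Nfasc (1.72), and 21 were lower (2.5% and 52.5%, against 11.0% and 12.7%). The cell type behind the Nfasc level was not tested.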

How the data were processed

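The values are raw counts, whole numbers per gene and spot with no normalisation, which the authors deposited as 1 joint table of all sections. The submitters' processing notes name Space Ranger and Seurat without versions. The genome build, probe set and spot filter are not given in the sources used here. Probe counting records only the targeted stretches, so levels are not comparable between genes.

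Spots under 500 counts were left out (1 of 12602). Counts per spot were scaled to 10000 and log-transformed. The 2000 most variable genes (channel, partner, Celsr and sex-linked genes left out) were centred per set and reduced to 30 principal components. A graph of 15 neighbours was clustered with Leiden (resolution 0.8, seed 0; scanpy 1.11.5, leidenalg 0.10.2). A cluster took the area with most markers, at least 3, among its 20 leading genes. No doublet caller was run, since spots are not cells. The counts of a gene were summed per area and set and divided by all counts there, as CPM. Correlations over clusters used log2(CPM + 1). No spot could be tied to a sample, so no test was made.

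The members and lists were chosen with earlier results of these data known. Genes were named by rule: in each area up to 8 members with the largest median log2 ratio in each direction among those past 1.5-fold, up to 8 between sets, and for Scn4b the 5 genes most like it over clusters. Members outside these, such as Scn1a, Scn2a, Scn2b, Cacng3 and Cacna1i in the cortical marker area, were named after their values were seen. Alternatives covered cluster resolution, centring, the spot filter, TMM and RLE scaling (edgeR 4.0.16), the level filter, a 2-fold threshold and each set left out. Counts were also simulated for 13773 genes, with 200 changed 3-fold. The rule recovered 100% in the striatal, cortical and thalamic and 95.5% in the white-matter comparison. It called 0, 0, 12 and 4 unchanged genes. The simulated counts had Poisson error only, around 1 shared profile per set, and a change well past the 1.5-fold rule. High recovery was therefore built in, and the check says nothing about scaling, centring or cluster assignment. Results of 2 members are not reported here; counts cover all members. Promoter windows matched 30 of the 40 members in the RefSeq table by symbol.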

Additional observations from a re-analysis of the deposited data

Results flagged for a closer look

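Cacng2, the TARP gene also called stargazin, had a whole-section level of 49.5 CPM in set 3, apart from the 59.5 to 60.7 CPM of the other 3 sets. The gap was 0.90 of the range over the 4 sets. The same look was taken at 35 genes, and chance sets apart about 1 in 20 such groups. No other channel gene was set apart in this way, Cacng6 included.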

How the results depend on the processing

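Counts of called members moved by more than 1.5 times under these alternatives, and the cause was not tested unless the setting itself is a stricter rule. The 7 members higher in the striatal marker area became 11 under TMM and 12 under RLE scaling. These scalings moved the median log2 ratio of all genes by 0.08 to 0.18 there and by 0.20 to 0.26 in the cortical marker area. The 5 lower striatal members became 3 without centring, 3 at 10 CPM or more and 3 at 2-fold. Without centring, the cortical counts were 0 higher and 7 lower and the thalamic counts 4 higher and 5 lower. At 2-fold they were 1 higher and 7 lower in cortex, 4 higher and 5 lower in thalamus, 13 lower in white matter and 4 between sets. At 10 CPM or more, 0 members were higher in white matter, since Cacna2d4 lies below that filter. Cacna2d2 in white matter turned from -1.16 to 0.24 (log2) without centring. No other direction of the 70 member and area values turned, but their sizes were less stable. These values cover only the striatal, cortical, thalamic and white-matter marker areas. Of 420 values under the alternative clusterings and scalings, 266 stayed inside the main value's counting interval (median limits over sets). Another 153 moved outside it in the same direction, and 1 was the reversal. Calls in the other marker areas, the septal and hypothalamic ones included, were not recomputed under the alternatives. At a resolution of 0.4, the cluster led by Lbhd2, Ctxn3 and Prkcd took no area, with 4 septal and 4 thalamic markers. Those genes led the septal cluster of the main setting. Leaving out each set in turn gave 7 to 9 higher and 5 to 6 lower members in the striatal area, 6 to 7 and 11 in cortex, 7 to 9 and 10 to 12 in thalamus, 1 and 23 to 25 in white matter, and 11 to 12 between sets. An area call needs every set with the area, so dropping a set could only keep or add such calls. The spread between sets could only stay or shrink. In thalamus, dropping a set left only set 1 or set 4. The direction of these changes was thus fixed in advance. No paired analysis was possible because the columns carry no replicate number or sample. Depth limits calls of low genes, which rest on as few as 13 counts for Cacna2d4 in white matter and 8 for Cacng6 in the thalamic area. In the striatal area they rest on as few as 31 for Cacng1 and 10 for Scn7a, and in the septal area on 3 for Cacng1.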

Other observations

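Both clusters that took no area held Pvalb among their leading genes and had high levels of a few channel genes. In cluster 20, led by Pvalb, Six3, Lancl3 and Esrrg, with 64 spots in set 1 and 95 in set 4, Scn1a stood at 288 and 210.5 CPM, Scn3a at 144 and 94.5 CPM, Cacna2d2 at 167 and 175 CPM and Cacng7 at 357 and 252 CPM. Cacna1e stood there at 17.6 and 12.9 CPM, the lowest of its clusters in both sets. In cluster 17, with Pvalb, Nkx2-1 and Lhx8 among its leading genes and 110, 109 and 113 spots in sets 1, 3 and 4, Scn1a stood at 302, 207 and 171 CPM and Cacng7 at 374, 288 and 237 CPM. Scn2a was at its lowest there in sets 1 and 4, at 64.0 and 49.7 CPM.

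Within the cortical marker area, cluster 4, led by Kcnh5, Vip, Cux2 and Lamp5, held the highest levels of Cacna2d1 in sets 1 to 3 (480, 467 and 427 CPM) and of Cacng3 (388, 293 and 342 CPM). Cluster 18, led by Ccn2, Cplx3 and Nxph4, held 6.89, 8.47, 4.56 and 10.8 CPM of Cacna1h in sets 1 to 4, the lowest of the clusters in sets 1 and 3. Set 4 had too few spots of cluster 4 for a level, and nearly all spots of cortical clusters 11 and 21 lay in set 4.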
